A study of Arabidopsis thaliana with 2 samples.

Results

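The 44 genes described here are nuclear loci of Arabidopsis thaliana that encode the light-harvesting proteins (20 loci, named LHCB for photosystem II and LHCA for photosystem I), subunits of the photosystems (19 loci), the small subunit of Rubisco (RBCS, 4 loci) and Rubisco activase (RCA, 1 locus). They were taken by locus identifier from a table of 33557 genes with values, and all 44 had values. Both genotypes were measured with 1 RNA-seq library each, so no difference below has a replicate check and none was tested. The first library was made from mature ovules of myb98, a mutant of the synergid transcription factor MYB98, with no allele or accession given in the sources used here. For the library labelled wild-type, unpollinated ovules came from ms1, a male-sterile line. Per the labels, emasculation was at floral stage 12 and harvest 36 hours later, each library pooled the ovules of about 50 pistils, and the plants grew in cycles of 16 hours of light and 8 hours of dark. The labels do not state the hour of harvest.

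Light-harvesting proteins bind chlorophyll and pass excitation energy to the photosystems, which move electrons from water to ferredoxin. LHCB1, LHCB2 and LHCB3 form the trimers of the main antenna, LHCB4 to LHCB6 are the minor antenna monomers between the trimers and the photosystem II core, and LHCA1 to LHCA4 form a belt on photosystem I. Rubisco fixes carbon dioxide with a large subunit encoded in the plastid and the small subunits listed here. In leaves the mRNAs of this set depend on light and follow the circadian clock. The ovule is a small, mostly non-photosynthetic organ inside the carpel.

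Values are FPKM (fragment counts scaled to transcript length and to library size), a level per length that can be compared between genes. The libraries held about 41900000 fragments (myb98) and 47900000 fragments (wild-type) by an estimate from the lowest values of long transcripts. MYB98 (AT4G18770) stood at 0.474 FPKM in the myb98 library and 1.35 FPKM in the wild-type library, in the direction of the labels. Markers of ovule identity and integuments summed to 239.5 FPKM in myb98 and 247.7 FPKM in wild-type ovules over 7 genes, of which 5 were lower and 0 differed by as much as 2-fold. The median log2 ratio of the 7, defined below, was -0.35. The most abundant of them, STK, was higher, at 123 FPKM in myb98 and 106 FPKM in wild-type. Of 6 guard cell genes, which mark green epidermis outside the ovule, the meristemoid gene MUTE was listed at 0 in both libraries, FAMA was listed at 0 in myb98 and stood at 0.00845 FPKM in wild-type, and MYB60 reached 2.44 FPKM in myb98 and 3.45 FPKM in wild-type. Of 7 carpel wall and stigma genes, HEC1 and HEC2 were listed at 0 in both libraries, and ALC made up most of the summed 40.8 FPKM in myb98 and 53.5 FPKM in wild-type. The 6 pollen genes summed to 1.404 FPKM in myb98 and 1.36 FPKM in wild-type. In whole ovules, fewer cells of a type and less RNA per cell cannot be told apart.

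Nuclear photosynthesis mRNAs were lower in myb98 ovules across nearly the whole set. The summed level of the 44 genes was 1691 FPKM in myb98 and 3474 FPKM in wild-type ovules, which is 0.624% and 1.24% of all FPKM in the library. Of 41 members with at least 1 FPKM in either library, 38 had a lower value in myb98 and 3 a higher one. Of all 16303 genes expressed by that rule, 8224 were lower and 8079 higher. A log2 ratio, log2((myb98 FPKM + 1)/(wild-type FPKM + 1)), of 2 or more in size is called here past 4-fold, and of 1 or more past 2-fold, and both are rules of size and not tests. By these rules 6 members were lower past 4-fold (0.712% of all 16303 expressed genes were) and 0 were higher (0.282% of all genes). At the 2-fold rule 12 were lower (2.74% of all genes) and 1 was higher (2.95% of all genes). The median log2 ratio of the 41 was -0.85, and that of all expressed genes was -0.0039 with an interquartile range of -0.28 to 0.29.

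The members are also more abundant than most genes, and abundant genes as a whole lay slightly higher in myb98. Among the 2445 genes averaging at least 20 FPKM, the median log2 ratio was 0.19, and 4.46% were lower past 2-fold. Of the 31 members at that level, 30 were lower in myb98, 7 of them past 2-fold, and of all 2445 genes 831 were lower. In wild-type ovules 19 of the 44 members stood among the first 500 genes by FPKM, and in myb98 ovules 4 did.

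**Figure D1:**
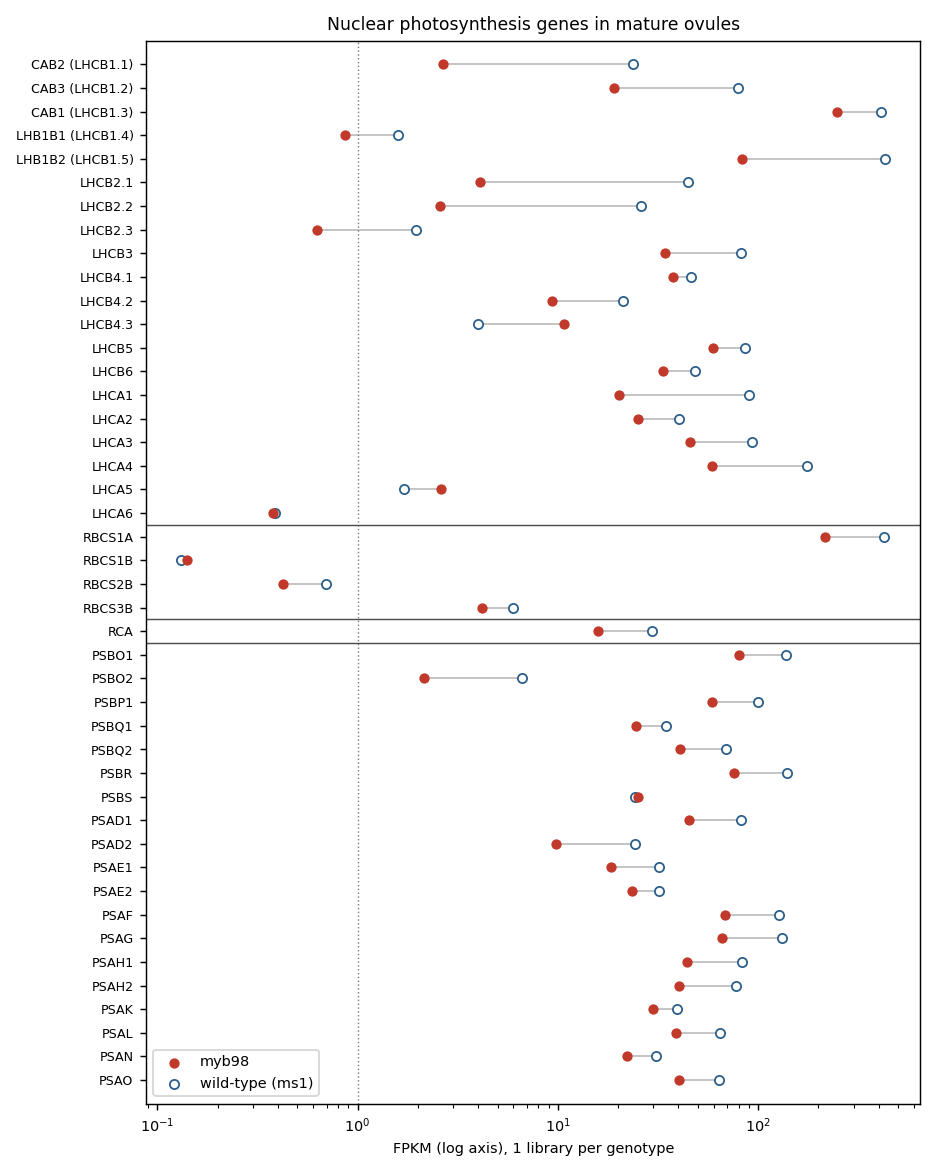
FPKM of each of the 44 genes in the myb98 library (filled) and the wild-type library (open), on a log axis, with horizontal lines between light-harvesting, RBCS, RCA and photosystem genes and a dotted line at 1 FPKM. The widest gaps are those of CAB2, LHCB2.1 and LHCB2.2, and LHCB4.3 and LHCA5 lie to the other side.

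Of the 6 members lower past 4-fold, 5 were LHCB1 or LHCB2 genes of the main photosystem II antenna, and other genes of these families differed less. LHCB2.1 (AT2G05100) and LHCB2.2 (AT2G05070) encode the trimer protein that is phosphorylated when the antenna moves between photosystems. LHCB2.1 was at 4.07 FPKM in myb98 and 44.5 FPKM in wild-type ovules, 10.9-fold lower (log2 ratio -3.17). LHCB2.2 was at 2.57 FPKM in myb98 and 26.2 FPKM in wild-type, 10.2-fold lower (log2 ratio -2.93). The third gene, LHCB2.3 (AT3G27690), was low in either library, at 0.629 FPKM in myb98 and 1.96 FPKM in wild-type. Summed over the family, 7.27 FPKM in myb98 stood against 72.7 FPKM in wild-type, so 10.01% remained. LHCB2.1 and LHCB2.2 share 92.9% of aligned coding bases, and 77.3% and 71.8% of the 50-base windows of their transcripts occur in no other annotated transcript, so reads could be split between them, which leaves their sum unaffected.

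LHCB1 is the most abundant antenna family, with 5 single-exon genes at 2 places. On chromosome 1, CAB3, CAB2 and CAB1 (LHCB1.2, LHCB1.1 and LHCB1.3) lie between 10472280 and 10479114. On chromosome 2, LHB1B2 and LHB1B1 (LHCB1.5 and LHCB1.4) lie between 14522524 and 14525918 (TAIR10.1). LHB1B2 (AT2G34420) was at 83.3 FPKM in myb98 and 431 FPKM in wild-type ovules, 5.18-fold lower (log2 ratio -2.36). CAB2 (AT1G29920) was at 2.66 FPKM in myb98 and 23.6 FPKM in wild-type, 8.90-fold lower (log2 ratio -2.75). CAB3 (AT1G29910) was at 18.98 FPKM in myb98 and 79.3 FPKM in wild-type, 4.18-fold lower (log2 ratio -2.01). These 3 passed the 4-fold rule, CAB3 barely. CAB1 (AT1G29930) did not pass the 2-fold rule, with 248 FPKM in myb98 and 413 FPKM in wild-type ovules, so 60.2% remained (log2 ratio -0.73). LHB1B1 (AT2G34430) was near the floor, at 0.869 FPKM in myb98 and 1.59 FPKM in wild-type.

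The make-up of the LHCB1 pool therefore differed between the libraries. CAB1 held 70.1% of the summed LHCB1 FPKM in myb98 and 43.5% in wild-type, and LHB1B2 held 23.5% in myb98 and 45.5% in wild-type. Summed LHCB1 was 354 FPKM in myb98 and 949 FPKM in wild-type (37.3% remained). The chromosome 1 trio summed to 270.1 FPKM in myb98 and 516 FPKM in wild-type (52.4% remained), and the chromosome 2 pair to 84.1 FPKM in myb98 and 433 FPKM in wild-type (19.4% remained). Coding sequences within the trio are 95.6% to 96.4% identical, so the split among CAB1, CAB2 and CAB3 is less certain than their sum. Between the trio and LHB1B2 the identity is lower, at most 91.1%. With near-identical paralogs summed, 3 units in place of 6 genes were lower past 4-fold. They were LHCB1.4 with LHCB1.5, LHCB2.1 with LHCB2.2, and LHCA1. LHCB3 (AT5G54270), the remaining trimer protein, was at 34.5 FPKM in myb98 and 81.7 FPKM in wild-type (log2 ratio -1.22).

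**Figure D2:**
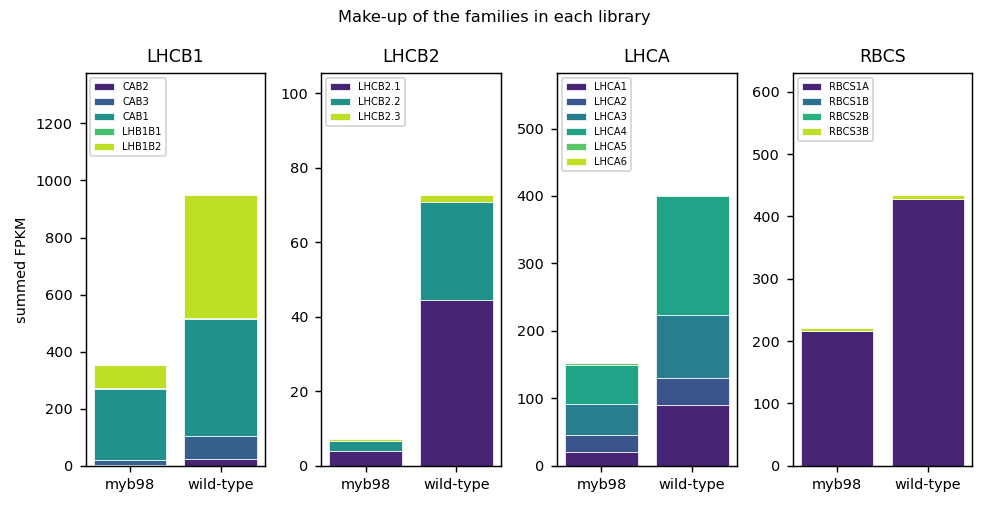
Summed FPKM of the LHCB1, LHCB2, LHCA and RBCS genes in the myb98 library (left bar) and the wild-type library (right bar), stacked by gene. In the LHCB1 panel the CAB1 part is 70.1% of the myb98 bar and 43.5% of the wild-type bar, and in the RBCS panel nearly the whole of each bar is RBCS1A.

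The sequences upstream of 5 of these antenna genes are shown, together with PSBQ2 of photosystem II for contrast. LHCB2.1, LHCB2.2, CAB2 and LHB1B2 were lower past 4-fold, and CAB1 was not. LHCB2.3, CAB3 and LHB1B1 are not shown. Each line holds the 200 bases before the annotated start, read 5′ to 3′ on the coding strand from TAIR10.1. Capitals mark matches, on either strand, to the motifs described after them.
LHCB2.1 (chr2:1824481-1824680, minus strand): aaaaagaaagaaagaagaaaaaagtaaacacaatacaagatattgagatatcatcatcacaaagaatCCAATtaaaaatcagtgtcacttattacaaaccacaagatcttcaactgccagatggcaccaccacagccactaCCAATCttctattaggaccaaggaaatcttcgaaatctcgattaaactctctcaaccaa
LHCB2.2 (chr2:1800473-1800672, minus strand): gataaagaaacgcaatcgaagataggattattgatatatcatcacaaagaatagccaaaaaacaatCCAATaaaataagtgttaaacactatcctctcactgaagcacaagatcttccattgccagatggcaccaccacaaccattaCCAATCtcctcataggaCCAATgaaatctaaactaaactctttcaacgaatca
CAB2 (chr1:10475970-10476169, minus strand): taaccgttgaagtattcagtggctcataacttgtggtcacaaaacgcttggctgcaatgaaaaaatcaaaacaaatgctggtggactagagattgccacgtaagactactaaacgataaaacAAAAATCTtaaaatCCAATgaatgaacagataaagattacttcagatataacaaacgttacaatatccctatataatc
LHB1B2 (chr2:14523569-14523768, minus strand): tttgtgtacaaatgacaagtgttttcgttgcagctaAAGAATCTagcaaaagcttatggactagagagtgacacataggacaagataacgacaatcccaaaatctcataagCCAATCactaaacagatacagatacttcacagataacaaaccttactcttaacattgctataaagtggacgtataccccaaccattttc
CAB1 (chr1:10477685-10477884, plus strand): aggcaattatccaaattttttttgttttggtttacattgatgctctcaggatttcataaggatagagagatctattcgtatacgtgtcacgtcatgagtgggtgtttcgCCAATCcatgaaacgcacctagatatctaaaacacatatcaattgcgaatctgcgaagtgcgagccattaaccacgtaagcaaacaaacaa
PSBQ2 (chr4:2673244-2673443, minus strand): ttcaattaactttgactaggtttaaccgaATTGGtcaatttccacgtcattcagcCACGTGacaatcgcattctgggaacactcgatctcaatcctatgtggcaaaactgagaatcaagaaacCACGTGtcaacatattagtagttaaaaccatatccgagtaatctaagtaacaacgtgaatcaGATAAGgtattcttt

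The upstream sequences of LHCB2.1 and LHCB2.2, which had nearly the same ratio, were 81.8% identical over 176 aligned bases and shared a run of 20 bases, tgccagatggcaccaccaca, next to CCAATC. Those of CAB2 and LHB1B2, both lower past 4-fold, were 74.1% identical. CAB1, which was lower by less than 2-fold, was 56.3% identical to CAB2 and 55.1% to LHB1B2 in the same stretch. CAB3 and LHB1B1 were not aligned, and no identity between unrelated upstream sequences was computed. Whether likeness goes with the ratio was therefore not tested. CAB2 held AAAAATCT, a form of the CCA1 binding site AANAATCT, followed by a CCAAT box. LHB1B2 held another form, AAGAATCT, and CCAATC. CAB1, the less reduced gene, also held CCAATC, and in the 8 bases from -5 to 3 and in those from 14 to 21 around its annotated start it held the forms AACAATCT and AAAAATCT. CAB3, lower past 4-fold, held a CCAAT box and neither CCAATC nor the CCA1 binding site from 250 bases before to 50 bases after its start. PSBQ2 held the G-box CACGTG at 2 places.

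The CCAAT box and the GLK motif were more frequent in windows of light-harvesting genes, and the G-box and I-box in those of photosystem genes. Windows ran from 250 bases before to 50 bases after the annotated start, and were searched on both strands in all 44 members and in 27443 protein-coding nuclear genes. The CCAAT box, bound by NF-Y factors, was in 19 of 20 light-harvesting windows, 11 of 19 photosystem windows and 51.6% of all windows. The GLK motif CCAATC, which contains the CCAAT box, was in 11 of 20 light-harvesting windows, 4 of 19 photosystem windows and 12.3% of all windows. The G-box CACGTG was in 4 of 20 light-harvesting windows, 9 of 19 photosystem windows and 7.68% of all windows. The I-box GATAAG was in 6 of 20, 10 of 19 and 14.6% of all. The CCA1 binding site AANAATCT was in 6 of 20, 5 of 19 and 15.9% of all, and the evening element AAAATATCT in 1 of 20, 0 of 19 and 2.82% of all. Within the light-harvesting genes, the GLK motif was in 4 of the 6 lower past 4-fold and 7 of the other 14, and the CCA1 binding site in 2 of the 6 and 4 of the 14. A match is a description of letters and not a bound site.

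**Figure D3:**
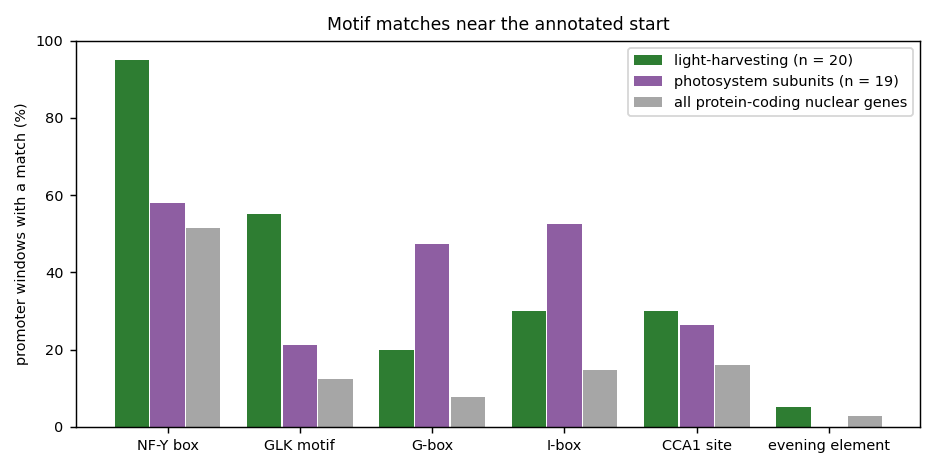
Percent of promoter windows with at least 1 match to each motif, for light-harvesting genes, photosystem subunit genes and all protein-coding nuclear genes. The NF-Y box (the CCAAT box of the text) is in 95% of light-harvesting windows against 51.6% of all, and the G-box in 47.4% of photosystem windows against 7.68% of all.

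As a sum, the minor antenna genes stayed closer to their wild-type level than the trimer genes LHCB1 to LHCB3, of which 35.9% remained. Gene by gene the groups overlapped, with CAB1 at 60.2% and LHCB4.2 at 44.2% of wild-type. LHCB5 (AT4G10340) was at 59.5 FPKM in myb98 and 85.9 FPKM in wild-type ovules, and LHCB6 (AT1G15820) at 33.5 FPKM in myb98 and 48.2 FPKM in wild-type, each at 69.3% of wild-type. LHCB4 is encoded by 3 genes that differed from each other. LHCB4.1 (AT5G01530) was at 37.5 FPKM in myb98 and 46.1 FPKM in wild-type (log2 ratio -0.29). LHCB4.2 (AT3G08940) was at 9.37 FPKM in myb98 and 21.2 FPKM in wild-type (log2 ratio -1.10). LHCB4.3 (AT2G40100), also known as LHCB8, was the only member higher past 2-fold, at 10.8 FPKM in myb98 and 4.01 FPKM in wild-type ovules, 2.68-fold higher (log2 ratio 1.23). The 3 LHCB4 transcripts share no 50-base window with another gene's annotated transcript, each read in its own direction. LHCB4.2 overlaps AT3G08943 on the other strand, which was at 9.86 FPKM in myb98 and 6.56 FPKM in wild-type. Reads from that overlap were not examined. Summed over LHCB4 to LHCB6, 150.6 FPKM in myb98 stood against 205.4 FPKM in wild-type (73.3% remained).

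Of the photosystem I antenna, LHCA1 (AT3G54890) was the member lower past 4-fold, at 20.2 FPKM in myb98 and 89.7 FPKM in wild-type ovules (4.45-fold, log2 ratio -2.10). LHCA4 (AT3G47470), which pairs with LHCA1 in the belt, was at 58.6 FPKM in myb98 and 176 FPKM in wild-type (3.01-fold, log2 ratio -1.57). The other pair was less reduced. LHCA3 (AT1G61520) was at 45.9 FPKM in myb98 and 93.3 FPKM in wild-type (log2 ratio -1.01), and LHCA2 (AT3G61470) at 25.1 FPKM in myb98 and 40.2 FPKM in wild-type (log2 ratio -0.66). LHCA5 (AT1G45474) and LHCA6 (AT1G19150) link photosystem I to the NDH complex of cyclic electron flow, and neither was lower by the rules. LHCA5 was at 2.62 FPKM in myb98 and 1.71 FPKM in wild-type, and LHCA6, under 1 FPKM, at 0.377 FPKM in myb98 and 0.388 FPKM in wild-type.

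Photosystem subunit genes had a median ratio nearer to that of all genes, and a narrower spread, than the light-harvesting genes. Of 19 genes, 18 were lower in myb98, 0 past 4-fold and 2 past 2-fold, with a median log2 ratio of -0.76 and an interquartile range of -0.89 to -0.57. The 19 expressed light-harvesting genes had a median of -1.01 and an interquartile range of -2.05 to -0.52, with 10 lower past 2-fold. The ranges of the groups overlap, and with 1 library per genotype their difference was not tested. The summed level was 755 FPKM in myb98 and 1300.5 FPKM in wild-type for photosystem subunits (58.1% remained), and 699 FPKM in myb98 and 1710.0 FPKM in wild-type for light-harvesting genes (40.9% remained). The summed LHCB1 to LHCB3 level was 1.29 times that of the 7 photosystem II subunit genes in myb98 and 2.15 times in wild-type, and LHCA was 0.341 times the photosystem I subunit sum in myb98 and 0.510 times in wild-type.

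**Figure D4:**
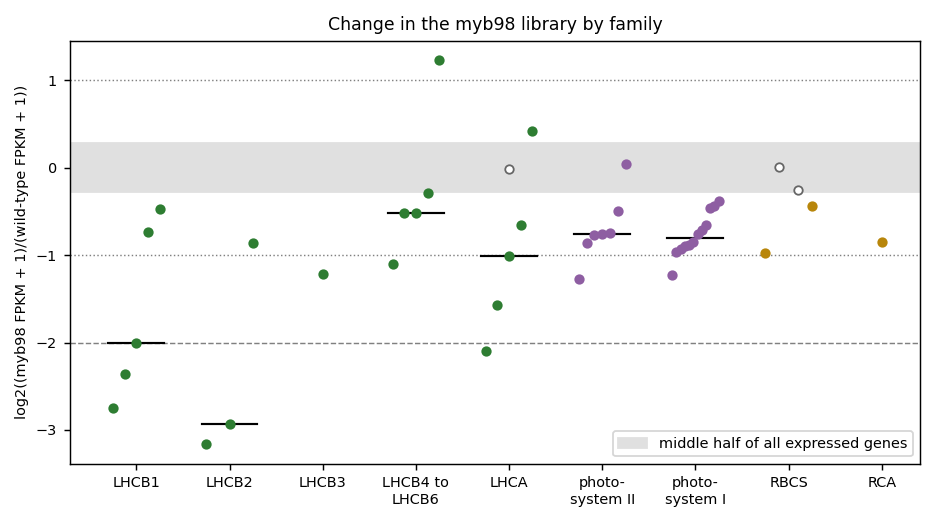
Log2 ratio of each member by family, with the family median as a black bar where at least 3 members reached 1 FPKM, open points for members under 1 FPKM in both libraries, and a grey band for the interquartile range of all expressed genes (-0.28 to 0.29). Dashed and dotted lines mark the 4-fold and 2-fold rules, and LHCB1 and LHCB2 reach farthest down while photosystem I genes lie between -1.23 and -0.39.

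In photosystem II, the extrinsic proteins that shield the water-splitting manganese cluster were led by PSBO1 (AT5G66570), at 80.4 FPKM in myb98 and 138 FPKM in wild-type ovules (58.1% remained). Its minor copy PSBO2 (AT3G50820) was the lowest by ratio, at 2.14 FPKM in myb98 and 6.61 FPKM in wild-type (log2 ratio -1.28). PSBP1 (AT1G06680) was at 59.2 FPKM in myb98 and 100.05 FPKM in wild-type, and PSBQ2 (AT4G05180) at 40.6 FPKM in myb98 and 69.4 FPKM in wild-type. PSBO1, PSBP1 and PSBQ2 thus stood at 58.1% to 59.2% of their wild-type level. PSBQ1 (AT4G21280) was at 24.5 FPKM in myb98 and 34.9 FPKM in wild-type, and PSBR (AT1G79040), needed for stable binding of PSBP, at 76.0 FPKM in myb98 and 139 FPKM in wild-type. PSBS (AT1G44575, annotated NPQ4), the sensor of energy-dependent quenching, was the exception, at 25.2 FPKM in myb98 and 24.3 FPKM in wild-type (log2 ratio 0.05).

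All 12 photosystem I subunit genes were lower in myb98, between 40.2% and 75.9% of the wild-type level. The lowest was PSAD2 (AT1G03130), at 9.79 FPKM in myb98 and 24.3 FPKM in wild-type ovules (log2 ratio -1.23), while its sister PSAD1 (AT4G02770), which encodes the same ferredoxin-docking subunit, was at 45.0 FPKM in myb98 and 82.0 FPKM in wild-type. PSAE1 (AT4G28750) was at 18.5 FPKM in myb98 and 31.9 FPKM in wild-type, and PSAE2 (AT2G20260) at 23.5 FPKM in myb98 and 32.1 FPKM in wild-type. PSAF docks plastocyanin, PSAG helps to hold the antenna belt, and the PSAH proteins take part in docking the mobile trimers. These genes had like ratios. PSAF (AT1G31330) was at 68.4 FPKM in myb98 and 127 FPKM in wild-type, PSAG (AT1G55670) at 66.4 FPKM in myb98 and 131 FPKM in wild-type, PSAH1 (AT3G16140) at 44.3 FPKM in myb98 and 83.4 FPKM in wild-type, and PSAH2 (AT1G52230) at 40.2 FPKM in myb98 and 77.4 FPKM in wild-type, all from 50.7% to 54.0% of wild-type. PSAL (AT4G12800) was at 38.9 FPKM in myb98 and 64.6 FPKM in wild-type, and PSAO (AT1G08380) at 40.4 FPKM in myb98 and 64.0 FPKM in wild-type. PSAK (AT1G30380) and the lumenal PSAN (AT5G64040) stood at 75.9% and 71.6% of wild-type, with 29.8 FPKM in myb98 against 39.3 FPKM in wild-type and 22.2 FPKM in myb98 against 31.0 FPKM in wild-type.

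The count past 2-fold for photosystem genes differs when transcript length is taken into account. Genes as short as these tended to be higher in the myb98 library, with medians of -0.01 to 0.45 (log2) over the genes nearest in length to each member. Set against that median, the median log2 ratio was -0.98 for photosystem genes and -1.10 for light-harvesting genes, so the gap between them was smaller. On this scale 8 of 19 photosystem genes were lower past 2-fold in place of 2, and the 6 light-harvesting genes lower past 4-fold kept that call. No share of all expressed genes on this scale is at hand, so these counts have no background beside them.

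Rubisco small subunit mRNA came almost wholly from RBCS1A (AT1G67090), which held 97.9% of the summed RBCS FPKM in myb98 and 98.4% in wild-type ovules. It was at 216 FPKM in myb98 and 427 FPKM in wild-type, so 50.6% remained (log2 ratio -0.98). The 3 genes of the chromosome 5 cluster, which lie between 15376988 and 15385320, were low in both libraries. RBCS3B (AT5G38410) was at 4.16 FPKM in myb98 and 5.99 FPKM in wild-type, RBCS2B (AT5G38420) at 0.423 FPKM in myb98 and 0.696 FPKM in wild-type, and RBCS1B (AT5G38430) at 0.140 FPKM in myb98 and 0.132 FPKM in wild-type. Their coding sequences are 96.7% to 97.3% identical, so single values are uncertain, and their sum was 4.73 FPKM in myb98 and 6.82 FPKM in wild-type. RCA (AT2G39730), which frees Rubisco from inhibitory sugar phosphates, was at 15.8 FPKM in myb98 and 29.4 FPKM in wild-type (log2 ratio -0.86). RBCS1A thus lay next to the light-harvesting median of -1.01. RCA and RBCS3B (log2 ratio -0.44) lay nearer to the photosystem median of -0.76. Each was less reduced than the LHCB1 and LHCB2 medians of -2.01 and -2.93, as a description.

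Other lists of photosynthesis genes had medians nearer to that of all genes than the members did. Of all 16303 expressed genes, 8224 were lower in myb98. Of 16 expressed chlorophyll synthesis genes 14 were lower, 2 past 2-fold, with a median log2 ratio of -0.53. Those 2 were CH1 (AT1G44446), the chlorophyll b synthase, at 4.05 FPKM in myb98 and 9.67 FPKM in wild-type ovules, and GUN4 (AT3G59400), an activator of magnesium chelatase, at 7.90 FPKM in myb98 and 17.6 FPKM in wild-type. GUN5 (AT5G13630), the chelatase H subunit, was at 18.4 FPKM in myb98 and 37.7 FPKM in wild-type. Of 9 other photosystem subunit genes 7 were lower and 2 passed the 2-fold rule (median -0.60), PSB27 (AT1G03600), an assembly factor, at 15.4 FPKM in myb98 and 34.4 FPKM in wild-type, and PSBY (AT1G67740) at 30.4 FPKM in myb98 and 65.1 FPKM in wild-type.

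All 6 genes for import and insertion of light-harvesting proteins were lower (median -0.40), 1 past 2-fold. That was the membrane insertase ALB3 (AT2G28800), at 7.27 FPKM in myb98 and 15.7 FPKM in wild-type ovules. Of 14 expressed Calvin cycle genes 9 were lower, with a median of -0.14, inside the interquartile range of all expressed genes (-0.28 to 0.29). The 1 past 2-fold was PRK (AT1G32060), which makes the substrate of Rubisco, at 9.82 FPKM in myb98 and 29.1 FPKM in wild-type. CP12-1 (AT2G47400), a regulator of that enzyme, was at 52.8 FPKM in myb98 and 106 FPKM in wild-type. Of 10 electron carrier and ATP synthase genes 8 were lower (median -0.34) and 0 passed the 2-fold rule. The lowest ratio there was that of the plastocyanin gene PETE1 (AT1G76100), at 6.32 FPKM in myb98 and 12.2 FPKM in wild-type.

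Genes of chlorophyll breakdown differed by little, and 2 genes of light stress were higher in myb98, 1 of them slightly. Of 5 breakdown genes 3 were lower and none passed the 2-fold rule (median -0.23). The chlorophyll b reductase gene NYC1 (AT4G13250) was at 11.9 FPKM in myb98 and 15.7 FPKM in wild-type ovules. The early light-induced protein genes, relatives of the antenna proteins made under excess light, were higher in myb98 without passing the rule. ELIP1 (AT3G22840) was at 27.3 FPKM in myb98 and 14.3 FPKM in wild-type (log2 ratio 0.89). ELIP2 (AT4G14690) was at 7.50 FPKM in myb98 and 6.16 FPKM in wild-type. Its log2 ratio of 0.25 lay inside the interquartile range of all expressed genes (-0.28 to 0.29).

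**Figure D5:**
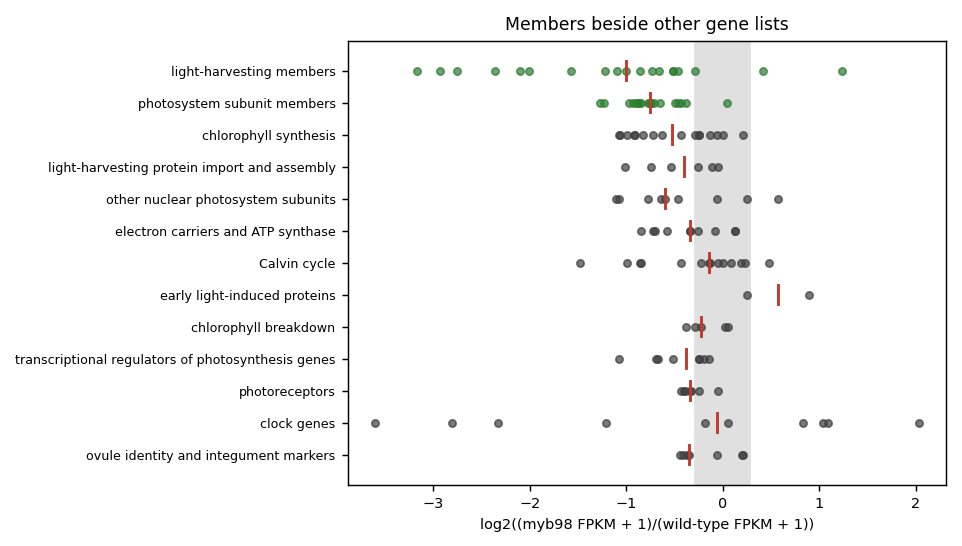
Log2 ratio of each expressed gene (points) and the median (red bar) for the light-harvesting and photosystem members and 11 other lists, with a grey band for the interquartile range of all expressed genes. The light-harvesting median of -1.01 and the photosystem median of -0.76 lie below those of the other lists, and clock genes spread the farthest.

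The GLK genes were among the listed regulators under 1 FPKM in ovules of either genotype, while 8 of the 14 were expressed. GLK1 (AT2G20570, annotated GPRI1), an activator of antenna and chlorophyll genes in leaves, was at 0.0118 FPKM in myb98 and 0.00854 FPKM in wild-type ovules, and GLK2 (AT5G44190) at 0.443 FPKM in myb98 and 0.328 FPKM in wild-type. The light-signalling factor HY5 (AT5G11260) was at 1.73 FPKM in myb98 and 2.12 FPKM in wild-type. The highest level in the list was that of GUN1 (AT2G31400), a plastid protein of signalling to the nucleus, at 11.8 FPKM in myb98 and 14.1 FPKM in wild-type. Of 8 expressed regulators all were lower, 1 past 2-fold, the phytochrome-interacting factor PIF4 (AT2G43010) at 1.19 FPKM in myb98 and 3.62 FPKM in wild-type. All 7 photoreceptor genes were lower without passing the 2-fold rule. Their median of -0.34 was near the -0.35 of the ovule identity and integument markers. Among them, the blue light receptor gene CRY2 (AT1G04400) was at 12.2 FPKM in myb98 and 16.9 FPKM in wild-type.

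Clock genes also differed between the libraries, with a median log2 ratio of -0.06. Of 10, 4 were lower past 2-fold (2.74% of all expressed genes were) and 3 were higher (2.95% of all genes). CCA1 (AT2G46830), a morning factor first known from binding an LHCB1 promoter, was at 0.314 FPKM in myb98 and 8.19 FPKM in wild-type ovules. LHY (AT1G01060), its partner, was at 0.977 FPKM in myb98 and 23.0 FPKM in wild-type. The evening gene TOC1 (AT5G61380) was at 16.0 FPKM in myb98 and 8.53 FPKM in wild-type. Its log2 ratio of 0.83 did not pass the 2-fold rule. The part of these differences in the result for the antenna genes was not tested, and genotype, line and hour of harvest cannot be told apart with these libraries.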

How the data were processed

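RNA-seq libraries of mature ovules were used, 1 of myb98 and 1 labelled wild-type (unpollinated ms1). The authors deposited FPKM values. Their table's header gives library names alone, so the unit was inferred from the values and the tools. The submitters' processing notes list TopHat2 2.0.14, Cuffdiff 2.2.1 and TAIR10. Annotation, strandedness and the scaling between libraries: not given in the sources used here. In general, Cuffdiff shares fragments among similar transcripts by an estimate. Without stated strandedness, reads of the 18 members whose spans overlap another annotated gene cannot be assigned with certainty.

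Of 35548 identifiers, 33557 had values and 32810 matched a TAIR10.1 locus, which gave names, lengths, coordinates and sequences. Ratios used a pseudocount of 1 FPKM, which understates the change of low genes, and a gene with at least 1 FPKM in either library was counted as expressed. Folds are plain ratios of FPKM. All 44 members are named, as are the 3 expressed genes with the largest log2 ratios, by size, in each list, with some left out of the text, and CCA1, LHY, TOC1, GLK1, GLK2, HY5 and MYB98. The members and lists were chosen with earlier results of these data known. Coding sequences and upstream sequences were aligned with Biopython 1.88, and other steps used Python 3.11.15, numpy 2.4.6 and pandas 2.3.3.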

Additional observations from a re-analysis of the deposited data

How the results depend on the processing

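Settings were changed one at a time: a pseudocount of 0.1 or 5 FPKM, no minimum or a minimum of 5 FPKM, libraries scaled to the same median, genes set against others of their transcript length, and near-identical paralogs summed. A value was taken to differ from the reported one when it moved by over 1.5 times or changed sign, since no replicate spread exists. In these comparisons 189 values stayed within that rule and 12 did not, and none reversed. Many of the 189 were counts of 0 that stayed at 0, in part in small classes. Others changed within the rule, such as the members lower past 2-fold, 12 as reported and 8 with a pseudocount of 5. With a pseudocount of 5, the genes lower past 4-fold numbered 3 of all members and 3 of the light-harvesting genes (LHB1B2, LHCB2.1 and LHCB2.2), those higher past 2-fold 0 in both, and the photosystem genes lower past 2-fold 0. With paralogs summed, 3 units were lower past 4-fold, again 3 in the light-harvesting class. Against genes of the same transcript length, 19 members, 8 photosystem genes and 1 Rubisco small subunit gene (RBCS1A) were lower past 2-fold. For that setting no share of all expressed genes is at hand. With libraries scaled to the same median, RBCS1A also passed, so that count was 1. Without CAB1, its most abundant gene over both libraries, the LHCB1 sum stood at 19.7% of wild-type in place of 37.3%, and without LHB1B2, the most abundant in wild-type, at 52.4%. The second of these was chosen after seeing the data. No paired analysis was possible because each genotype has 1 library. The same lack of replicates, and members under 1 FPKM in both libraries, which rest on an estimated 11 to 31 fragments each, limit what can be said of single genes.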

Other observations

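The plastid genome encodes the core of both photosystems and the Rubisco large subunit, and these genes were chosen after their values were seen. Their mRNAs were near the floor, and of 133 plastid genes with values 23 reached 1 FPKM in either library. The large subunit gene rbcL was at 0.900 FPKM in myb98 and 1.80 FPKM in wild-type ovules. The photosystem II core gene psbA was at 0.886 FPKM in myb98 and 2.34 FPKM in wild-type, and the photosystem I core gene psaA at 0.862 FPKM in myb98 and 1.68 FPKM in wild-type. Whether the libraries were selected for polyadenylated RNA is not given in the sources used here, so levels of plastid and nuclear genes are not compared.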
